A study of Mus musculus with 10 samples.

Results

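The genes of milk protein and milk secretion were examined in mammary gland that was not making milk. The group was a set list of 10 genes, chosen by name and function, out of the 46983 Ensembl genes counted. It held the caseins *Csn1s1*, *Csn1s2a*, *Csn2* and *Csn3*, the whey proteins *Wap* and *Lalba*, the secreted proteins *Wfdc18* and *Ltf*, and *Xdh* and *Btn1a1*, which act in the release of milk fat. All 10 were found by symbol, and 5 of them (*Csn3*, *Wfdc18*, *Ltf*, *Xdh* and *Btn1a1*) had enough counts to be among the 15610 genes tested.

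Virgin female C57BL/6 mice ate a semi-purified diet with 1 mg folic acid (FA)/kg (control, CFA) or 5 mg FA/kg (high, HFA) as adults. All then ate the same maintenance diet for 4 weeks, up to post natal day 130, when the right thoracic fat pad was taken. The comparison asks whether the level of FA intake left a lasting difference in gene expression. RNA-seq gave 1 library per mouse, each named here by its sample title. The paper discarded 1 HFA library for poor reverse reads and removed 1 library as an outlier. This left the 5 libraries per diet used here. These are whole fat pads, so a library holds fat, muscle, vessels and immune cells beside the epithelium that makes milk. In such bulk RNA, fewer cells of a type and less RNA per cell cannot be told apart.

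Milk proteins are made by the luminal alveolar cells of the gland, which form and mature in pregnancy. Prolactin, acting through its receptor, the kinase Jak2 and the transcription factor Stat5, turns on the casein and whey genes together with glucocorticoid and factors such as Elf5, C/EBPβ and NF-I. Milk fat leaves the same cells as droplets wrapped in apical membrane, a step that needs butyrophilin (*Btn1a1*) and xanthine oxidoreductase (*Xdh*).

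Gene counts per library ran from 7672199 to 14829291. Libraries T1234, T1334 (CFA) and T2334 (HFA) stood apart: the summed CPM (counts per 1000000 after TMM scaling) of 4 B cell markers was 231.7, 583 and 1755 there and 2.47 to 3.71 in the other 7, and that of 5 T cell markers was 112, 266 and 617 against 4.02 to 10.2. For the 5 milk genes tested, the log2 fold change is given below with and without these 3 libraries. Mammary epithelium was present in every library, with the summed CPM of 10 luminal markers (*Krt19* the most abundant) between 506 and 2254 in CFA and between 340.2 and 1670 in HFA. The 6 basal markers summed to 426 to 1709 in CFA and 159.9 to 1016 in HFA.

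The stretches of DNA just before the start of the milk genes are shown first, since the lactation signal acts there. Of the 10 genes, 7 were matched by symbol in the set of RefSeq promoters used (GRCm38.p6). That set held no entry for *Csn3*, *Xdh* and *Btn1a1*. The 250 bases before each start were searched on both strands for a Stat5 site (TTCNNNGAA), a C/EBP core (TTGCNNAA) and an NF-I element (TGGCA). The Stat5 site was found in *Csn1s1* and *Csn2*, 2 of the 7, and in 7.02% of all 32851 RefSeq promoters of the same length. It lay at about the same distance in both, 100 to 92 bases before the start of *Csn1s1* and 93 to 85 before that of *Csn2*. Each site is printed with 10 bases on either side, from chr5:87666098-87666126 (plus strand) and chr5:87699500-87699528 (minus strand), with the site in capitals.
Csn1s1: tttgtaacaaTTCTTAGAAtttatgtaaa
Csn2: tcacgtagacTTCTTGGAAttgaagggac

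*Wap* and *Wfdc18* lie on chromosome 11 and code for small secreted proteins of the same four-disulfide core family. By mean level over the 10 libraries, these 2 genes were at opposite ends of the range. Their 250 bases before the start are shown from chr11:6638650-6638899 (minus strand) and chr11:83708754-83709003 (plus strand), with any match to the motifs in capitals. *Wap* held 2 NF-I elements, and *Wfdc18* held none of the motifs.
Wap: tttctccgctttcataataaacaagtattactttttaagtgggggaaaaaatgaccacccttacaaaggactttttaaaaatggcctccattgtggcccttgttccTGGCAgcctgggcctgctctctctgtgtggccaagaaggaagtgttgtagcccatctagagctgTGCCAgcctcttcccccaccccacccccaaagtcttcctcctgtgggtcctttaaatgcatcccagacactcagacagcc
Wfdc18: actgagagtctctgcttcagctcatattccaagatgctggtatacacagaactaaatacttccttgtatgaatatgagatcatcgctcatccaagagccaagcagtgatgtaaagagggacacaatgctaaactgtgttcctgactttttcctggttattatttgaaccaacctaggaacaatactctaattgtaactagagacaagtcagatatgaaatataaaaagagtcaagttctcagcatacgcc

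The NF-I element was found in *Csn1s1*, *Wap* and *Lalba*, against 42.8% of all promoters, and the C/EBP core in *Ltf* alone among the 7, against 9.56%. A match of letters is a description and not a bound site, and binding was not measured here.

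Together the 10 genes took 0.0228% to 0.0718% of the gene counts of a CFA library (mean 0.0498% ± 0.0177 SD, n = 5) and 0.0168% to 0.0418% of an HFA library (mean 0.0324% ± 0.0102 SD, n = 5). The highest share was in T1224, with an exact 95% interval of 0.0703% to 0.0733%, and the lowest in T2334, with 0.0162% to 0.0175%. These intervals cover counting error within a library only and not the spread between mice, and the reads carry no molecular identifiers. The ranges of the diets overlapped.

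Levels of different genes were compared as RPKM, the CPM per kilobase of merged exons. *Wfdc18* had the highest mean at 74.1 ± 69.7 (SD, n = 10), followed by *Ltf* at 33.9 ± 21.3. *Xdh* stood at 14.4 ± 4.17, *Csn3* at 10.2 ± 4.93 and *Btn1a1* at 5.64 ± 3.13 on the same scale. Neighbours in this order were not cleanly apart, since *Wfdc18* exceeded *Ltf* in 6 of 10 libraries and *Xdh* exceeded *Csn3* in 7 of 10. The order of *Wfdc18* and *Ltf* differed by diet. Mean *Wfdc18* was above mean *Ltf* in CFA (120.7 ± 73.3 against 33.5 ± 16.7) and below it in HFA (27.4 ± 9.83 against 34.3 ± 27.3). *Ltf* exceeded *Xdh* in 9 of 10 libraries, and *Csn3* exceeded *Btn1a1* in 8 of 10. *Csn1s1* (0.240 ± 0.408) and *Csn2* (0.239 ± 0.425) came far below, under *Btn1a1* in all 10 libraries, and could not be ordered between themselves on this scale. With the longest transcript in place of merged exons, *Csn3* (24.3) passed *Xdh* (17.0), so that the order of this pair depended on the length used. The means of *Csn1s1* and *Csn2* were then apart, at 0.981 ± 1.66 and 0.420 ± 0.746, so how these compared also depended on it.

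The caseins sit in 1 cluster on chromosome 5, at chr5:87666208-87932665 (GRCm38), which spans 266.5 kb and holds 13 annotated genes. Reads were counted on 7 of the 13, and 1 gene, *Csn3* at the far end, was tested. *Csn3* codes for κ-casein, which coats and stabilises the casein micelle, and it had 5076 counts over the 10 libraries. The other caseins had far fewer counts: 241 for *Csn2* (β-casein), 217 for *Csn1s1* (αs1-casein), 7 for *Csn1s2b* and 6 for *Csn1s2a* (αs2-caseins). *Csn3* is overlapped on the other strand by the antisense gene *1700066N21Rik*, which had 0 counts in these libraries.

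*Csn3* had 62.7, 66.7, 67.6, 43.7 and 13.7 CPM in the CFA libraries T1224, T1234, T1314, T1324 and T1334. In the HFA libraries T2214, T2224, T2234, T2314 and T2334 it had 47.5, 39.6, 29.5, 44.5 and 9.10 CPM. T1334 and T2334 were the lowest of their diets, and 3 CFA libraries lay above every HFA library, with the rest interleaved. The mean was 50.9 ± 22.9 in CFA and 34.0 ± 15.5 in HFA (SD, n = 5 each), a log2 fold change of HFA over CFA of -0.58 (SE 0.48, adjusted p = 0.794). This test and those below are the quasi-likelihood test of edgeR, with p adjusted by Benjamini-Hochberg, unless another fit is named. Without T1234, T1334 and T2334 the log2 fold change was -0.53 (SE 0.19, adjusted p = 0.147), and it was -0.70 and -0.72 within title digits 2 and 3, which are described below.

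*Csn1s1* (chr5:87666208-87682578) had 99, 3, 87, 1 and 21 counts in the CFA libraries, in the same order as above. Its HFA libraries had 0, 1, 2, 1 and 2 counts. *Csn2* (chr5:87692624-87699630) had 124, 5, 85, 3 and 18 counts in CFA and 0, 1, 0, 0 and 5 in HFA. Libraries T1224 and T1314 thus held 85.7% of all *Csn1s1* counts and 86.7% of all *Csn2* counts. T1334 came next for both genes. The remaining CFA libraries, T1234 and T1324, had 1 to 5 counts. As CPM, T1234 lay above every HFA library for *Csn1s1* (0.329, against an HFA maximum of 0.284) and for *Csn2* (0.548 against 0.318), and T1324 lay within the HFA range for both genes (0.0723 and 0.217). So 4 of the 5 CFA libraries were above all HFA libraries, on few counts in T1234 and in HFA. T1234 was among the 3 highest libraries for *Csn3* and had the most *Wfdc18*, yet only 3 and 5 counts of these caseins.

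Neither gene passed the filter on low counts. Fitted without it, *Csn1s1* gave a log2 fold change of -4.65 (SE 1.14, unadjusted p = 0.00161, adjusted p = 0.732). *Csn2* gave -4.97 (SE 1.17, unadjusted p = 0.0012, adjusted p = 0.732), where 5.49% of the 27582 genes in that fit had an unadjusted p below 0.05. By DESeq2 on the same genes both passed, with an adjusted p of 0.0198 for *Csn1s1* and 0.0158 for *Csn2*, where 0.327% of the 18660 genes given an adjusted p were called. By the likelihood ratio test *Csn2* passed (adjusted p = 0.0438) and *Csn1s1* did not (adjusted p = 0.0565), where 0.127% of genes were called. With 1 library left out of the quasi-likelihood fit neither gene passed, and the highest adjusted p over these alternatives was 0.845 for both. Without T2334 the log2 fold change of *Csn2* was -6.54, and without T1224 it was -4.23.

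**Figure D1:**
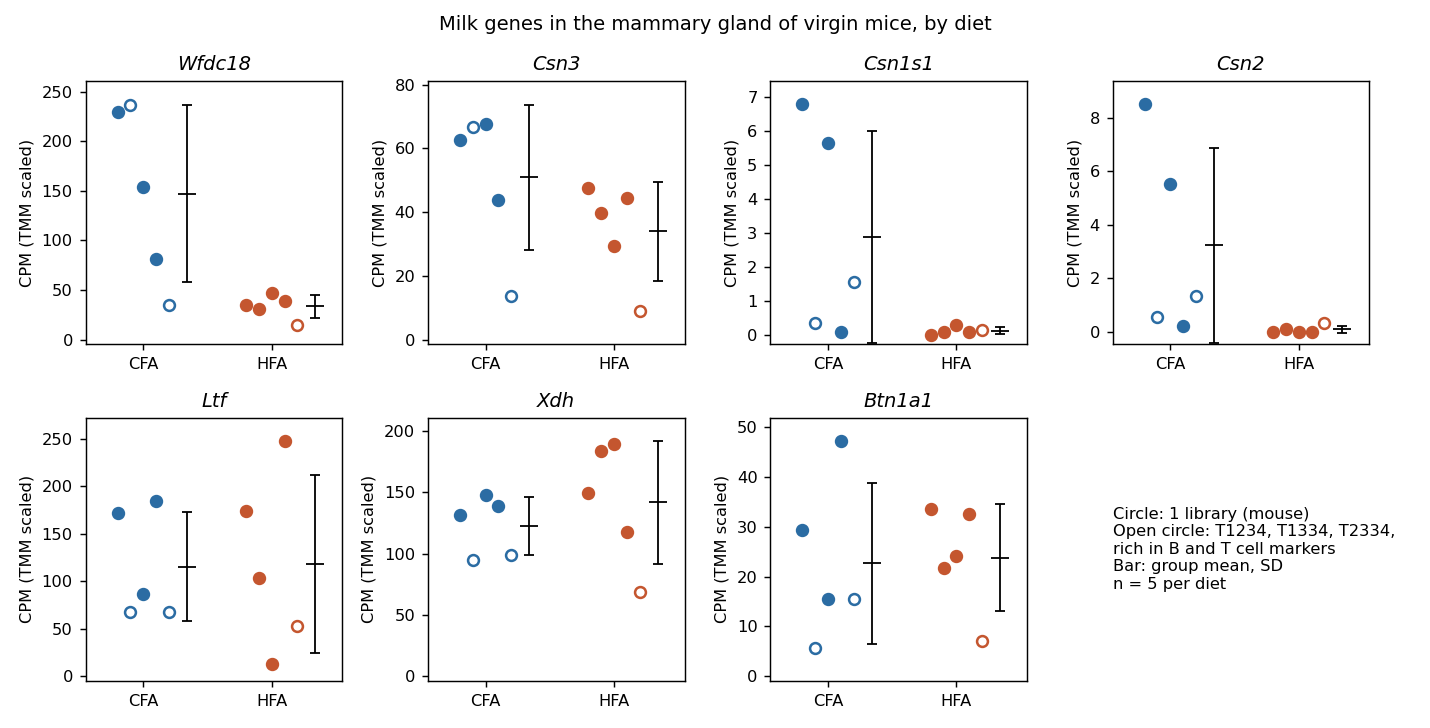
CPM of 7 milk genes in each library by diet (linear axes, a circle per mouse; open circles are T1234, T1334 and T2334; the bar is the mean with SD, n = 5). *Wfdc18* lies between 34.3 and 237.1 CPM in CFA and between 14.6 and 47.0 in HFA, and *Csn1s1* and *Csn2* are near 0 in all but 3 CFA libraries, so that their SD bars reach below 0.

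The remaining casein and the whey proteins were at the limit of detection. *Wap*, whey acidic protein and the main whey protein of mouse milk, had 1 read in all 10 libraries together, in T1334. *Lalba*, α-lactalbumin, the milk-specific partner of galactosyltransferase in lactose synthesis, had 9 reads, 5 in CFA and 4 in HFA. *Csn1s2a* had 6 reads, 5 in CFA and 1 in HFA. None of these 3 genes exceeded 3 counts in any library, a floor that stood for 0.1909 to 0.4257 CPM according to depth. A difference between diets was not detectable at this depth, and no fold change is given for them.

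*Wfdc18* (chr11:83709015-83711348), which codes for a small extracellular protease inhibitor, showed the largest difference between diets of the 5 genes tested. It had 229.8, 237.1, 153.5, 81.7 and 34.3 CPM in the CFA libraries and 35.3, 31.1, 47.0, 38.9 and 14.6 CPM in the HFA libraries. Of the CFA libraries, 4 lay above every HFA library and T1334 lay within the HFA range. The means were 147.3 ± 89.4 and 33.4 ± 11.99 CPM, 4.42-fold lower in HFA by the fit. The log2 fold change was -2.14 (SE 0.50, unadjusted p = 0.00155, adjusted p = 0.577), which did not pass the threshold of 0.05. Only 17 of the 15610 genes tested (0.109%) had a log2 fold change this low or lower, and by p it ranked 41 among them.

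The call on *Wfdc18* and the size of its difference depended on the fit, while its direction was the same in all 17 fits. The log2 fold change lay between -2.60 (within title digit 2, below) and -1.53 (with a luminal marker covariate, below), and its adjusted p over all alternatives ran from 0.0094 to 0.999. It passed by the likelihood ratio test of edgeR (adjusted p = 0.0209), by DESeq2 (adjusted p = 0.0094) and by limma voom with quality weights (adjusted p = 0.0307), which called 0.211%, 0.389% and 6.64% of all genes. Without T1234, T1334 and T2334 it was -2.03 (SE 0.30, adjusted p = 0.0428), in a fit that called 2.98% of genes. Leaving out T1234 gave -1.96 and leaving out T1334 -2.40, neither past the threshold.

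The sample titles carry a digit, the second, that is 2 or 3 in either diet (2 in 2 of the CFA and 3 of the HFA libraries), and the labels do not say what it stands for. Within digit 2 the log2 fold change of *Wfdc18* was -2.60 (SE 0.19, adjusted p = 0.0168, 9.12% of genes called), and within digit 3 it was -1.83 (SE 0.80, adjusted p = 0.993). The interaction of diet and digit did not pass (unadjusted p = 0.314).

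*Ltf* codes for lactoferrin, an iron-binding protein of milk and other secretions that neutrophils also store in granules. It had 171.5, 67.9, 86.3, 184.3 and 67.4 CPM in CFA and 174.5, 103.5, 12.9, 247.6 and 53.3 CPM in HFA. The HFA libraries thus held both the highest value (T2314) and the lowest (T2234), 19.2-fold apart, and the CFA libraries lay between. The log2 fold change was 0.04 (SE 0.64, adjusted p = 0.992) and its sign depended on the scaling, at -0.023 with upper-quartile scaling. Without T1234, T1334 and T2334 it was -0.14. The 8 neutrophil markers summed to 1.24 to 5.22 CPM in CFA and 1.11 to 5.61 in HFA, *Ly6g* was at 0 in every library, and 7 of the 8 were too low to be tested.

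*Xdh*, an enzyme of purine breakdown that also takes part in enveloping the milk fat droplet, varied least of the 5 genes tested, with 2.75-fold between its highest and lowest library. It had 131.6, 94.99, 147.9, 138.5 and 99.1 CPM in CFA and 149.7, 183.6, 189.0, 117.2 and 68.8 CPM in HFA. The lowest library of each diet was rich in lymphocyte markers, and 3 HFA libraries lay above every CFA library. The log2 fold change was 0.21 (SE 0.26, adjusted p = 0.864), and 0.20 without T1234, T1334 and T2334. Within title digit 2 it was 0.64 and within digit 3 it was -0.55, a difference with an unadjusted interaction p of 0.0254 (adjusted p = 0.568).

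*Btn1a1*, the main membrane protein of the milk fat globule, had 29.3, 5.70, 15.4, 47.2 and 15.6 CPM in CFA and 33.7, 21.6, 24.1, 32.6 and 7.07 CPM in HFA. CFA held both the highest library, T1324, and the lowest, T1234, and the diets overlapped throughout. The log2 fold change was 0.07 (SE 0.54, adjusted p = 0.980), and without T1234, T1334 and T2334 it was -0.13.

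By edgeR's quasi-likelihood test 0 of the 5 genes tested passed the adjusted threshold, as did 0 of all 15610 genes (0.0%). At an unadjusted p below 0.05 there was 1 of 5, *Wfdc18*, where 7.36% of all genes had such a p and 3.49% had one and were lower in HFA. *Csn3* and *Wfdc18* were lower in HFA and the other 3 higher, where 60.0% of all genes were higher. The median log2 fold change was 0.04 over the 5 genes and 0.06 over all genes. None of the 5 had diets without overlap in CPM, as 0.993% of all genes did.

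**Figure D2:**
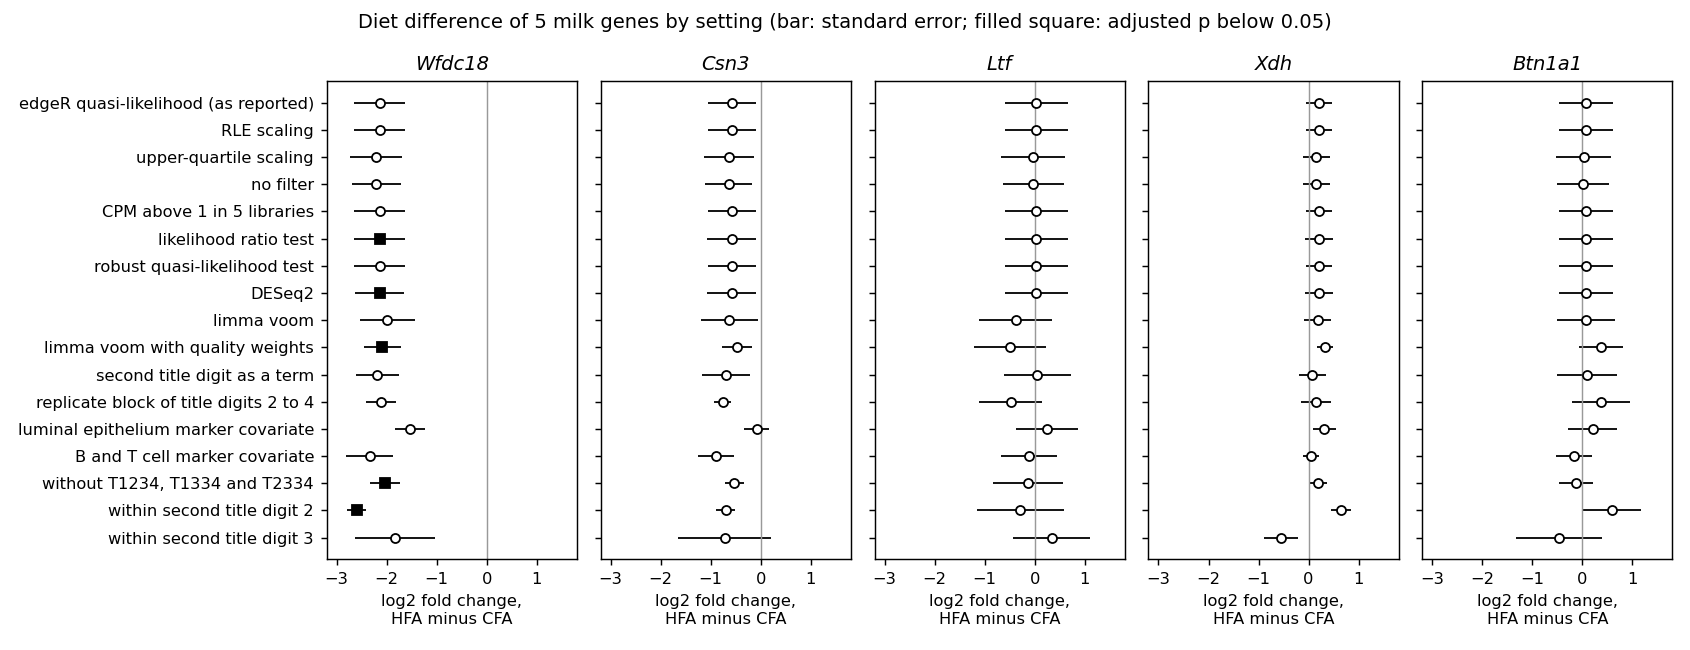
Log2 fold change of HFA over CFA (x axis, bar: standard error) of the 5 milk genes tested in 17 fits (y axis; filled squares passed an adjusted p of 0.05). *Wfdc18* stays between -2.60 and -1.53 with 5 filled squares, *Csn3* stays below 0 without passing, and *Ltf*, *Xdh* and *Btn1a1* fall on both sides of 0.

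Most markers of epithelium were lower in HFA as well, by differing amounts. All 5 markers of luminal progenitor or alveolar cells (*Kit*, *Aldh1a3*, *Elf5*, *Cd14* and *Ehf*) were lower, with log2 fold changes of -1.42 to -0.73. All 6 basal markers were lower too, as were 8 of the 10 luminal markers, while 3 of the 5 hormone-sensing luminal markers were higher. The 10 luminal log2 fold changes ran from -1.27 to 0.17, and the most abundant, *Krt19* and *Krt18*, had -0.12 and -0.09. None of these markers passed the adjusted threshold, and the smallest adjusted p among the luminal and basal lists was 0.655.

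Counts of the milk genes were therefore also set against the summed counts of the 10 luminal markers in the same library. Per 100 luminal marker counts, *Wfdc18* had 13.8, 10.5, 11.8, 5.39 and 6.79 counts in CFA and 2.12, 3.13, 3.31, 3.03 and 4.30 in HFA. On this scale every HFA library lay below every CFA library, which held for 0.327% of all genes. Against the 6 basal markers the diets overlapped, at 6.98 to 25.3 counts per 100 in CFA and 3.46 to 9.16 in HFA. With the mean of the luminal markers as a covariate, the log2 fold change of *Wfdc18* was -1.53 (SE 0.30, unadjusted p = 5.06e-04, adjusted p = 0.376), where 9.34% of genes had an unadjusted p below 0.05.

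*Csn3* had 2.71 to 5.18 counts per 100 luminal marker counts in CFA and 2.08 to 3.98 in HFA, and these ranges overlapped widely. With the luminal covariate its log2 fold change was -0.08 (SE 0.25, adjusted p = 0.904). *Ltf*, *Xdh* and *Btn1a1* overlapped on this scale as well. What part of the difference in *Wfdc18* follows the amount or make-up of epithelium was not tested.

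**Figure D3:**
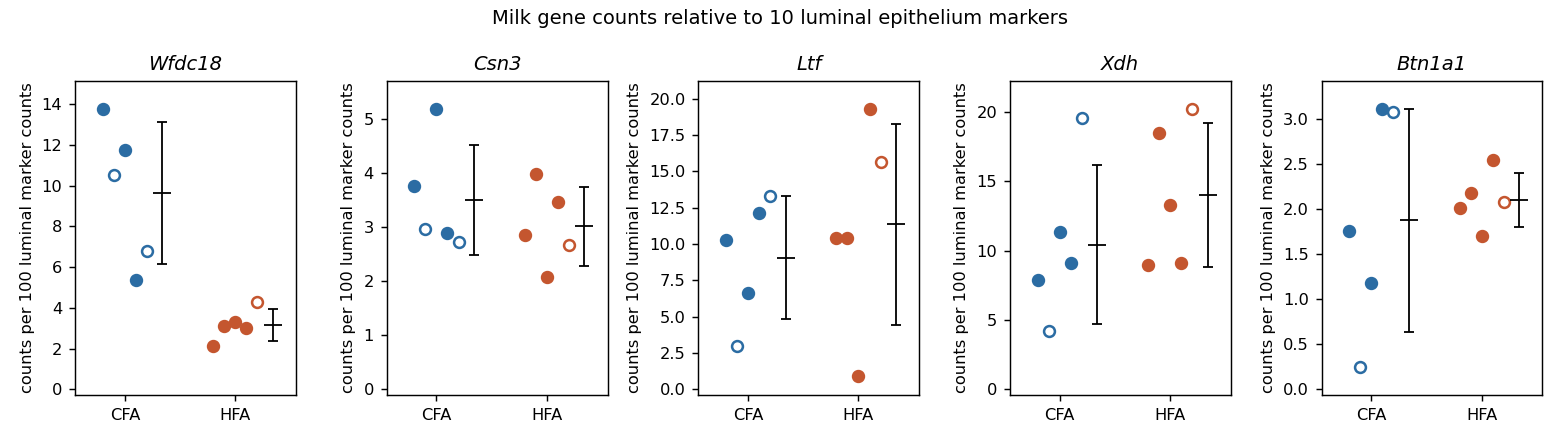
Counts of each of 5 milk genes per 100 counts of 10 luminal epithelium markers, by diet (linear axes, a circle per mouse; open circles are T1234, T1334 and T2334; the bar is the mean with SD, n = 5). *Wfdc18* lies at 5.39 to 13.8 in CFA and 2.12 to 4.30 in HFA, and the other genes overlap between diets.

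Across the 10 libraries, log2 CPM of *Wfdc18* followed the mean of the 5 luminal progenitor or alveolar markers (Pearson r = 0.945, Spearman rho = 0.95, and r = 0.895 without T1224 and T2334, the farthest libraries in marker level). *Csn3* followed the same markers with r = 0.916 (rho = 0.77, and r = 0.881 without those libraries). It was as close to the 10 luminal markers (r = 0.927, rho = 0.697, and r = 0.524 without T1334 and T2334) and to the 6 basal markers (r = 0.904, rho = 0.867, and r = 0.791 without T1224 and T2334). *Wfdc18* had r = 0.775 with the luminal and r = 0.84 with the basal markers (rho = 0.867 and 0.83, and r = 0.731 and 0.738 without the same libraries). *Wfdc18* and *Csn3* went together with r = 0.783 (rho = 0.794). These are descriptions over 10 libraries that differ in depth, diet and cell make-up, each of which may enter an r, and no p is given.

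For the other members the highest r among the 7 lists compared was with a list outside the epithelium. *Xdh* had its highest r with the 4 endothelial markers (r = 0.791, rho = 0.939, and 0.708 without T1234 and T2334). *Btn1a1* had its highest with the 5 adipocyte markers (r = 0.807, rho = 0.818, and 0.807 without T1334 and T2334). With the B cell markers r was -0.867 for *Xdh*, -0.798 for *Btn1a1* and -0.293 for *Ltf* (-0.765, -0.708 and -0.204 without T2334). For *Xdh* this was the largest r in size. *Ltf* had no r above 0.436 with any list, the highest being that with the adipocyte markers (rho = 0.818). The median r over the 10 pairs of the 5 genes was 0.361, and 0.069 without T2334, so that the likeness among members rested largely on that library.

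**Figure D4:**
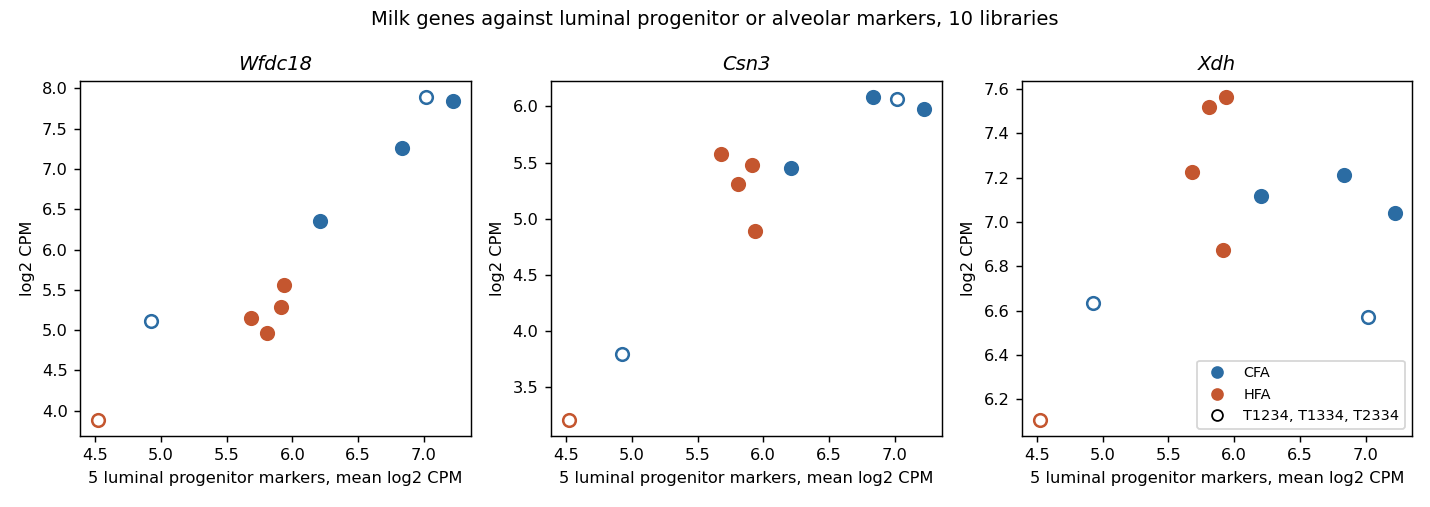
Log2 CPM of *Wfdc18*, *Csn3* and *Xdh* (y axes) against the mean log2 CPM of 5 luminal progenitor or alveolar markers (x axes) in the 10 libraries, coloured by diet, with open circles for T1234, T1334 and T2334. *Wfdc18* (r = 0.945) and *Csn3* (r = 0.916) rise with the markers across libraries, and *Xdh* (r = 0.379) spreads.

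The genes tested whose log2 CPM was most like that of each member were named by rank alone. For *Wfdc18* these were *Plxnb1* (r = 0.983), *Ctnnd1* (r = 0.982) and *Lgals7* (r = 0.98), and for *Csn3* they were *Dstyk* (r = 0.981), *Rin2* (r = 0.979) and *Gna14* (r = 0.979). For *Xdh* they were *Mitf* (r = 0.977), *Fer* (r = 0.971) and *Abca8a* (r = 0.971). For *Ltf* they were *Sept4* (r = 0.926), *Gm10687* (r = 0.915) and *Tmem35a* (r = 0.913), and for *Btn1a1* *Git1* (r = 0.95), *4430402I18Rik* (r = 0.949) and *Zfp879* (r = 0.935). Each is among the highest values over all 15610 genes with 10 libraries, and is given as a description.

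Other genes of lactation were taken from 4 lists. Of 16 genes of lactogenic signalling 15 were tested, with 9 higher and 6 lower in HFA and 0 past the adjusted threshold. At an unadjusted p below 0.05 were *Stat5b* (log2 fold change 0.39, adjusted p = 0.67), a signal carrier of prolactin and growth hormone, *Nfib* (-0.53, adjusted p = 0.67), an NF-I factor, and *Tfap2c* (-1.05, adjusted p = 0.67), a factor of luminal cells. The prolactin receptor gene *Prlr* was the most abundant of the list, at 303.8 ± 147.3 CPM in CFA and 369.8 ± 197.4 in HFA. *Prl* itself, made in the pituitary, had 0 counts. *Elf5*, the alveolar regulator, had 91.7, 76.9, 68.2, 42.6 and 19.3 CPM in CFA and 28.3, 35.0, 62.1, 31.2 and 11.8 in HFA, overlapping, with a log2 fold change of -0.83 (adjusted p = 0.699).

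Of 13 further milk protein genes 8 were tested, 4 higher and 4 lower, with 0 called. *Muc1*, a mucin of the apical membrane, had 31.4, 32.8, 25.9, 17.4 and 13.5 CPM in CFA and 9.41, 10.7, 13.2, 13.7 and 3.31 in HFA. Only T2314 and T1334 overlapped, and the log2 fold change was -1.27 (SE 0.38, unadjusted p = 0.00703, adjusted p = 0.648). *Mfge8*, which coats the milk fat globule and was the most abundant of this list, had a log2 fold change of -0.49 (unadjusted p = 0.0336, adjusted p = 0.656). It had 483.8 to 934.8 CPM in CFA and 451.6 to 644 in HFA. Its highest HFA library was T2334, which had the lowest summed luminal markers. The next most abundant was *Glycam1*, with 274.6, 519 and 733 CPM in T1234, T1334 and T2334 and at most 1.22 CPM elsewhere. Its product is a mucin of milk and also of lymph node vessels, and these are the 3 libraries rich in B and T cell markers. *Csn1s2b*, *Lpo*, *Saa3* and *Cel* were, like *Glycam1*, not among the tested genes.

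Of 12 genes of the milk fat globule and lipid secretion 11 were tested, 5 higher and 6 lower, with 0 called and *Olah* untested. It shares *Muc1* and *Mfge8* with the list before. *Muc15*, a further mucin of the globule membrane, had a log2 fold change of -1.58 (SE 0.49, unadjusted p = 0.00897, adjusted p = 0.648), with 40.5 to 227.8 CPM in CFA and 15.5 to 71.0 in HFA. The most abundant were *Acsl1* (log2 fold change -0.07) and *Cd36* (0.16), both also abundant in fat cells. All 12 genes of lactose synthesis and transport were tested, 7 higher and 5 lower, with 0 called. *Slc12a2*, the Na-K-Cl cotransporter, had 1.01 (adjusted p = 0.67) and the water channel gene *Aqp3* 1.61 (adjusted p = 0.67) as log2 fold changes, and *Pgm1* (0.43), the second most abundant after *Slc12a2*, was far from the threshold. *Aqp3* was low, with 132 counts over all libraries, 56 of them in T2334. Its diets overlapped, at 0.13 to 1.19 CPM in CFA and 0.274 to 3.56 in HFA.

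The 4 lists held 44 different genes that were tested. Of these 6 (13.6%) passed by voom with quality weights, where 6.64% of all genes were called (*Id2*, *Mfge8*, *Muc1*, *Muc15*, *Slc12a2* and *Stat5b*). Without T1234, T1334 and T2334 3 passed (6.82%; *Muc1*, *Muc15* and *Tfap2c*), where 2.98% of all genes were called. By the likelihood ratio test and by DESeq2 0 of the 44 passed.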

How the data were processed

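The authors made TruSeq v2 libraries. Paired reads were aligned on the GRCm38 genome by TopHat 2.0.14, which runs Bowtie 2.2.5, and HTSeq 0.6.1 made the counts per Ensembl gene; the strand setting of the counting is not given in the sources used here. The deposited values are raw counts, 1 list per library, with 5 summary lines that were left out. Reads with more than 1 alignment (28.8% to 33.9% of counted lines) were not counted on genes. The study's cage term is not in the labels and was not fitted.

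Diets were compared with edgeR 4.0.16 in R 4.3.3 (filterByExpr, TMM, quasi-likelihood test, Benjamini-Hochberg over 15610 genes, threshold 0.05). DESeq2 1.42.0 and limma 3.58.1 were alternatives. CPM used TMM scaling, and log2 CPM a prior count of 2. Lengths came from GENCODE M21. The quasi-likelihood fit was also run on simulated counts, and the alternative fits were not. The members and lists were chosen with earlier results of these data known. Named genes were all members, list genes without overlap or with an unadjusted p below 0.05, the 2 most abundant or untested genes of each list, the 3 genes most like each member with a mean count of at least 50, and leading markers.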

Additional observations from a re-analysis of the deposited data

Results flagged for a closer look

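In 14 tests for a library far from the rest of its diet (Dixon's test on log2 CPM, 5 libraries each, 95% level), 3 values stood out, where chance gives about 1 in 20. All 3 passed narrowly, with the gap over the range at 0.726, 0.711 and 0.716 in the order below, against a critical value of 0.71. The tests share libraries and are not independent. *Csn3* was below the other CFA libraries in T1334, at 3.80 log2 CPM, and below the other HFA libraries in T2334, at 3.21. *Btn1a1* was below the other HFA libraries in T2334, at 2.85. The summed CPM of the 10 luminal markers was also lowest of its diet in both libraries (506 in T1334 and 340.2 in T2334), and that of the B cell markers highest (583 and 1755). Their part in these values was not tested.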

How the results depend on the processing

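Over all genes, the 0 calls of the quasi-likelihood test became 33 by edgeR's likelihood ratio, 60 by DESeq2, 1037 by voom with quality weights, 1 with the luminal covariate, 3 with the B and T marker covariate, 469 without T1234, T1334 and T2334 and 1418 within title digit 2. Leaving out 1 library gave 0 to 6 calls, the 6 without T2334. Among the 5 milk genes past the filter 1, *Wfdc18*, was called by the likelihood ratio test, DESeq2, voom with quality weights, without those 3 libraries and within digit 2, and 0 with any 1 library left out. In fits without a filter *Csn1s1* also passed by DESeq2 and *Csn2* by DESeq2 and the likelihood ratio test. Of the 5 tested, 1 was higher in HFA with the B and T cell covariate, without the 3 libraries and within digit 3, and 1 to 3 with 1 library left out. Of the 44 other genes of lactation tested, 6 were called by voom with quality weights and 3 without the 3 libraries. Of the 42 tested within digit 2, 8 were called (*Id2*, *Lcn2*, *Mfge8*, *Muc1*, *Muc15*, *Pgm1*, *Stat5b* and *Tfap2c*). These fits called 6.64%, 2.98% and 9.12% of all genes, in the same order. The cause of these shifts was not tested.

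The log2 fold change of *Ltf* turned to -0.023 with upper-quartile scaling, -0.025 without a filter, -0.38 by voom, -0.49 with quality weights, -0.11 with the B and T cell covariate, -0.14 without the 3 libraries and -0.29 within digit 2, and lay between -0.42 and 0.33 with 1 library left out. That of *Btn1a1* turned to -0.17 with the B and T cell covariate, -0.13 without the 3 libraries and -0.47 within digit 3, and lay between -0.22 and 0.53 with 1 library left out. That of *Xdh* turned to -0.55 within digit 3. *Csn3* and *Wfdc18* were below 0 in all 17 fits and with any 1 library left out. The share of the milk genes was 0.0308% in CFA and 0.0195% in HFA over all counted lines, and the median r among members was 0.069 without T2334.

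Titles share their last 3 digits in 4 pairs across diets. Deviations from the diet means correlated at 0.298, -0.294, 0.111 and 0.41 in these pairs. These values cannot decide whether the digits pair mice, since lymphocyte markers differed between libraries. The pair at 0.41 was T1334 and T2334, both rich in B and T cell markers. In the pair at -0.294 only T1234 was rich in them. The digits were not used to pair mice in the fit reported above. With a replicate block of these digits (8 libraries, quasi-likelihood test) *Wfdc18* was -2.11 (SE 0.30, unadjusted p = 4.85e-04, adjusted p = 0.252). *Csn3* was -0.76 (SE 0.17, unadjusted p = 0.00435, adjusted p = 0.415) and *Ltf* -0.48 (SE 0.63), with 0 genes called. Without the block, on all 10 libraries, the SE was 0.50 for *Wfdc18*, 0.48 for *Csn3* and 0.64 for *Ltf*. Depth limits *Wap*, *Lalba* and *Csn1s2a*, which never exceeded 3 counts.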

Other observations

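The range over libraries of 1 diet differed between members. Within CFA, *Wfdc18* ran from 34.3 to 237.1 CPM, while *Xdh* ran from 94.99 to 147.9. *Lcn2*, which codes for lipocalin, a secreted iron-chelator carrier, had 29.7 to 180.4 CPM in CFA and 17.2 to 70.0 in HFA (log2 fold change -0.93, SE 0.48, adjusted p = 0.688 by edgeR). *Wfdc2*, of the same protein family as *Wfdc18*, had 44.4 ± 37.0 CPM in CFA and 57.9 ± 34.1 in HFA (SD, n = 5; log2 fold change 0.38, SE 0.62, adjusted p = 0.903 by edgeR). *Wfdc21* of this family had 7.24 ± 2.72 and 7.48 ± 5.24 CPM (log2 fold change 0.05, adjusted p = 0.986 by edgeR). *Lcn2*, *Wfdc2* and *Wfdc21* were chosen after their values were seen.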
